A study of Mus musculus with 2 samples.

Results

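The 32 genes described here are immediate early response genes, listed by name, and all 32 were found among the 17775 genes of the count matrix. They were followed across cell classes in 2 single-cell libraries from MC38 tumours, MC38 being an established mouse colon carcinoma line. In each of the 2 groups, 200000 MC38 cells had been implanted in the back of C57BL/6 mice. Mice of the DFMO group received difluoromethylornithine, an inhibitor of the polyamine enzyme ornithine decarboxylase, by gavage from day 7 for 14 days, and mice of the water group received water on the same schedule. The tumours were digested and passed over Ficoll to obtain immune cells, and cells of 4 mice were pooled into 1 library of 5' ends per group. The labels name neither sex nor age, and with 1 library per group there is no spread between animals. All intervals are 95% intervals of counting error, and no difference was tested against replicates.

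Immediate early genes are transcribed within minutes of a stimulus, without new protein synthesis, because the factors that switch them on are already present and are activated by kinases. Many encode transcription factors such as FOS, JUN and EGR, and others encode the brakes of the same response: phosphatases that switch off MAP kinases, proteins that speed mRNA decay, and inhibitors of NF-kB and cytokine signalling. Enzymatic digestion and handling of a tissue can raise these genes in the cells being isolated, so a level in dissociated cells need not be the level in the tumour. There was no sample without dissociation, and the part of it in any value below was not tested.

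Filtering left 4421 cells of the DFMO library, whose median depth was 2208 UMIs (unique molecular identifiers), and 6150 cells of the water library, whose median depth was 6334.5 UMIs. The members took 291655 UMIs in the DFMO library and 517244 in the water library, which were 1.25% and 0.886% of all UMIs. The cell barcodes shared by the libraries numbered 37. Cells were clustered without the members, and classes were named from markers. The largest were B cell-like (1492 DFMO and 57 water cells), CD4 T cell-like (742 and 68), CD8 T cell-like (728 and 529), monocyte and macrophage-like (188 and 1222), fibroblast-like (107 and 869) and clusters with almost no Ptprc, the pan-leukocyte gene (578 and 2031). These Ptprc-low cells, taken as tumour-like, had 3.28 CPM of Ptprc in the DFMO library and 1.59 CPM in the water library. CPM, the usual depth-scaled unit, were computed here from UMIs summed over all cells of a class in a library. A list of 4 Y-linked genes summed to 1.29 and 0.703 CPM in Ptprc-low cells, against 194 and 105 CPM in the named leukocytes. The fibroblast-like class, with 1.23 and 1.48 CPM, was at the level of the Ptprc-low cells and far below the leukocytes. Whether this class is host stroma or tumour-derived was not tested. The class is kept out of both sides of the comparison of leukocytes with Ptprc-low cells. Of 5 epithelial markers, 3 were at 0 in DFMO Ptprc-low cells and the list summed to 0.398 CPM there and to 21.9 CPM in water Ptprc-low cells. Of the 717 UMIs behind the water value, 696 lay in the cluster led by Ccnd1, at 77.7 CPM with 0 of 5 markers at 0, against 0.77 and 0.994 CPM in the other Ptprc-low clusters. The list was thus near 0 in all DFMO clusters and in all but 1 water cluster, and these cells are called Ptprc-low. Their 7 fibroblast markers summed to 3418 and 3098 CPM, against 13421 and 14330 CPM in the fibroblast-like class. A UMI is counted once per captured transcript whatever its length, but capture and mapping can differ between genes, which was not tested, so orders of CPM between genes are descriptions.

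The 250 bases before the RefSeq start on GRCm38.p6 were at hand for 25 of the 32 members and were searched on both strands for motifs through which early genes are known to be switched on. The cAMP response element TGACGTCA stood before 3 of the 25 members (Dusp1, Btg2 and Maff) and before 1.55% of 32851 promoters. A member was counted by a match in any of its promoters. The percentages here are of promoters, which belonged to 27025 genes, so the 2 measures are not alike. A CArG box, the core of the serum response element, stood before Egr2, Dusp5 and Zfp36, and before 1.47% of all promoters. The EGR site GCGGGGGCG stood before 6 members (Fosb, Fosl2, Dusp2, Zfp36, Klf4 and Socs3), and before 2.57% of all. A kappaB site stood before 7 members and 7.25% of all, TATAAA before 5 members and 12.4% of all, and the AP-1 site TGACTCA before 0 members and 4.46% of all. The Fos promoter also holds a kappaB site, left in lower case. The motifs did not overlap in the sequences shown. A match is a description of letters, not a site of binding. Bases further upstream were not searched, so a motif not found here, such as a CArG box in Fos, may lie outside the window. The members without a promoter at hand were Fosl1, Egr1, Egr3, Ier2, Zfp36l2, Nfkbiz and Cebpd. The 5 promoters below are shown because they belong to Fos, Zfp36, Dusp1 and Btg2, which were far higher in leukocytes than in Ptprc-low cells, and to Klf4, which went the other way. Capitals mark TATAAA in Fos, the EGR site and then the CArG box in Zfp36, the cAMP response element in Dusp1 and Btg2, and the EGR site, read on the other strand, in Klf4. Fos lies on the plus strand (chr12:85473640-85473889), and the others on the minus strand: Zfp36 (chr7:28379229-28379478), Dusp1 (chr17:26508473-26508722), Btg2 (chr1:134079156-134079405) and Klf4 (chr4:55532476-55532725).
Fos: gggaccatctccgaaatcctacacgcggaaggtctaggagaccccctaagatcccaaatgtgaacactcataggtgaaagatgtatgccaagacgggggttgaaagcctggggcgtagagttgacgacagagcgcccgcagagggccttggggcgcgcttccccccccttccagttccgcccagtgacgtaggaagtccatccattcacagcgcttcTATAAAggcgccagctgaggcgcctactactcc
Zfp36: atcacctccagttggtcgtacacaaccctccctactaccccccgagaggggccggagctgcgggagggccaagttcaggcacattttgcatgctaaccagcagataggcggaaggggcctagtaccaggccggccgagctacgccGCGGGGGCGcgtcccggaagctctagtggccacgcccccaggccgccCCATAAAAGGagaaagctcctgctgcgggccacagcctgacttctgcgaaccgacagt
Dusp1: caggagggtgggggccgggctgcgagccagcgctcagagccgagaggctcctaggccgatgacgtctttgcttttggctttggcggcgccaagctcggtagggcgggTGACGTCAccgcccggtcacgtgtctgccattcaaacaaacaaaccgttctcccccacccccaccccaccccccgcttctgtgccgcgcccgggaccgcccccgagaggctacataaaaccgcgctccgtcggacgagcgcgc
Btg2: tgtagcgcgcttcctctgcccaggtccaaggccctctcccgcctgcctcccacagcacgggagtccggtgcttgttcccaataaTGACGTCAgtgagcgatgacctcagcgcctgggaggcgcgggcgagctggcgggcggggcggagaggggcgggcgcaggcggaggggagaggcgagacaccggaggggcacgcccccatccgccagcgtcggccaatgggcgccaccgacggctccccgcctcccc
Klf4: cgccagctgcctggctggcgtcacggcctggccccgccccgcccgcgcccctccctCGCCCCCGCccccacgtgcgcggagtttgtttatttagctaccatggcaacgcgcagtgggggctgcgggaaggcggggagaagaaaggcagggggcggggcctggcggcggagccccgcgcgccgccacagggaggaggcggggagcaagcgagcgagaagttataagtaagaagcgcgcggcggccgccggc

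The members as a whole were highest in B cell-like and monocyte-like cells and lowest in Ptprc-low cells, in both libraries. Their summed level was 34871 CPM in DFMO and 27187 CPM in water B cell-like cells. Monocyte and macrophage-like cells had 24315 and 22458 CPM, and CD4 T cell-like cells had 19379 and 18404 CPM. Regulatory T cell-like, CD8 T cell-like, other T cell-like and NK cell-like cells lay between 9536 and 15642 CPM over both libraries. Migratory and conventional dendritic cell-like cells, with at least 50 cells in the water library only, had 14974 and 13134 CPM there. The fibroblast-like class had 7366 CPM in DFMO and 9138 CPM in water, and Ptprc-low cells had 5055 and 5580 CPM. The order of the classes from highest to lowest was thus the same at both ends in the 2 libraries, and no leukocyte class in either library was as low as the fibroblast-like class.

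**Figure D1:**
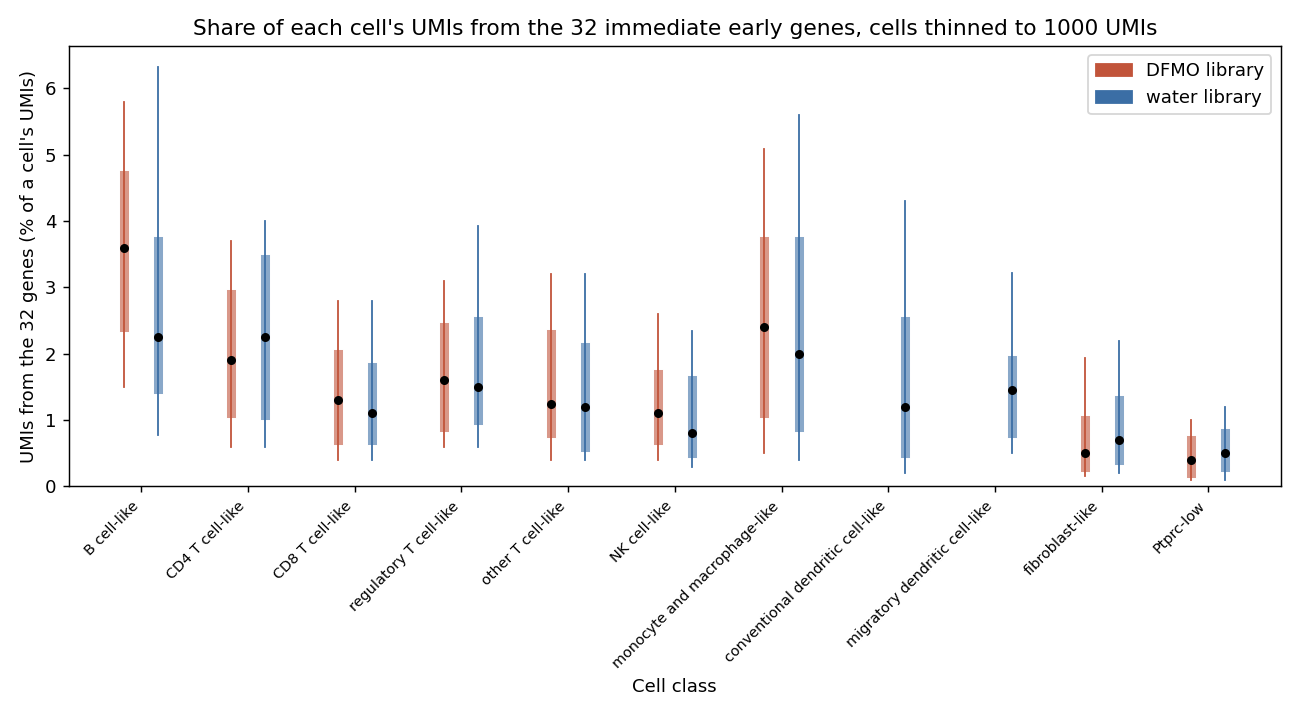
Share of each cell's UMIs from the 32 genes (vertical axis, percent), after thinning every cell to 1000 UMIs, by cell class and with the DFMO library left of the water library. Dots are medians over cells, thick bars the middle 50% and thin bars the range from the 10th to the 90th percentile of cells. The DFMO B cell-like median is the highest, at 3.6%, the water medians of B and CD4 T cell-like cells are both 2.25%, and Ptprc-low cells are lowest, at 0.4% and 0.5%. Dendritic cell-like classes had under 50 DFMO cells and are drawn for water.

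Single cells were compared after thinning every cell to 1000 UMIs, which left out 102 DFMO and 133 water cells with fewer. The medians of B cell-like cells were 3.6% in DFMO and 2.25% in water, and those of CD4 T cell-like cells 1.9% and 2.25%, so the B cells stood apart from CD4 T cells in the DFMO library and not by their median in the water library. A median monocyte and macrophage-like cell drew 2.4% (DFMO) and 2% (water) of its UMIs from the members. In NK cell-like cells the median was 1.1% and 0.8%, and in fibroblast-like cells 0.5% and 0.7%. At least 5% of the UMIs came from the members in 20.3% of DFMO and 20.8% of water B cell-like cells, and in 0% of Ptprc-low cells of either library. The water B cell-like share rests on at most 57 cells, against at most 1492 in DFMO. The spread within a class was wide: from the 10th to the 90th percentile, monocyte and macrophage-like cells ran from 0.5% to 5.09% in DFMO and from 0.4% to 5.6% in water.

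Leukocytes of all named classes, summed, had 20400 CPM of the members in the DFMO library, against 5055 CPM in Ptprc-low cells, a ratio of 4.04-fold (log2 2.01, interval 2.00 to 2.03). In the water library they had 16507 CPM, against 5580 CPM, a ratio of 2.96-fold (log2 1.56, interval 1.56 to 1.57). Genes with at least 30 UMIs over both sides were compared, and a gene is called higher or lower past 2-fold. In the DFMO library 24 of the 32 members were higher in leukocytes, where 27.1% of all 12412 genes compared were, and 5 were lower, where 22.9% of all genes were. In the water library 20 members were higher (22.4% of all 13052 genes) and 3 were lower (26.9% of all genes). The median member had a log2 ratio of 2.11 in DFMO and 1.75 in water, against 0.02 and -0.21 over all genes tested. The 20 members higher in the water library were also higher in the DFMO library, where Jun, Egr1, Zfp36l1 and Btg1 were added. Of the leukocytes, 1492 of 3682 were B cell-like in DFMO and 57 of 3101 in water, so the mix behind the 2 ratios differs, and single classes are needed beside them.

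**Figure D2:**
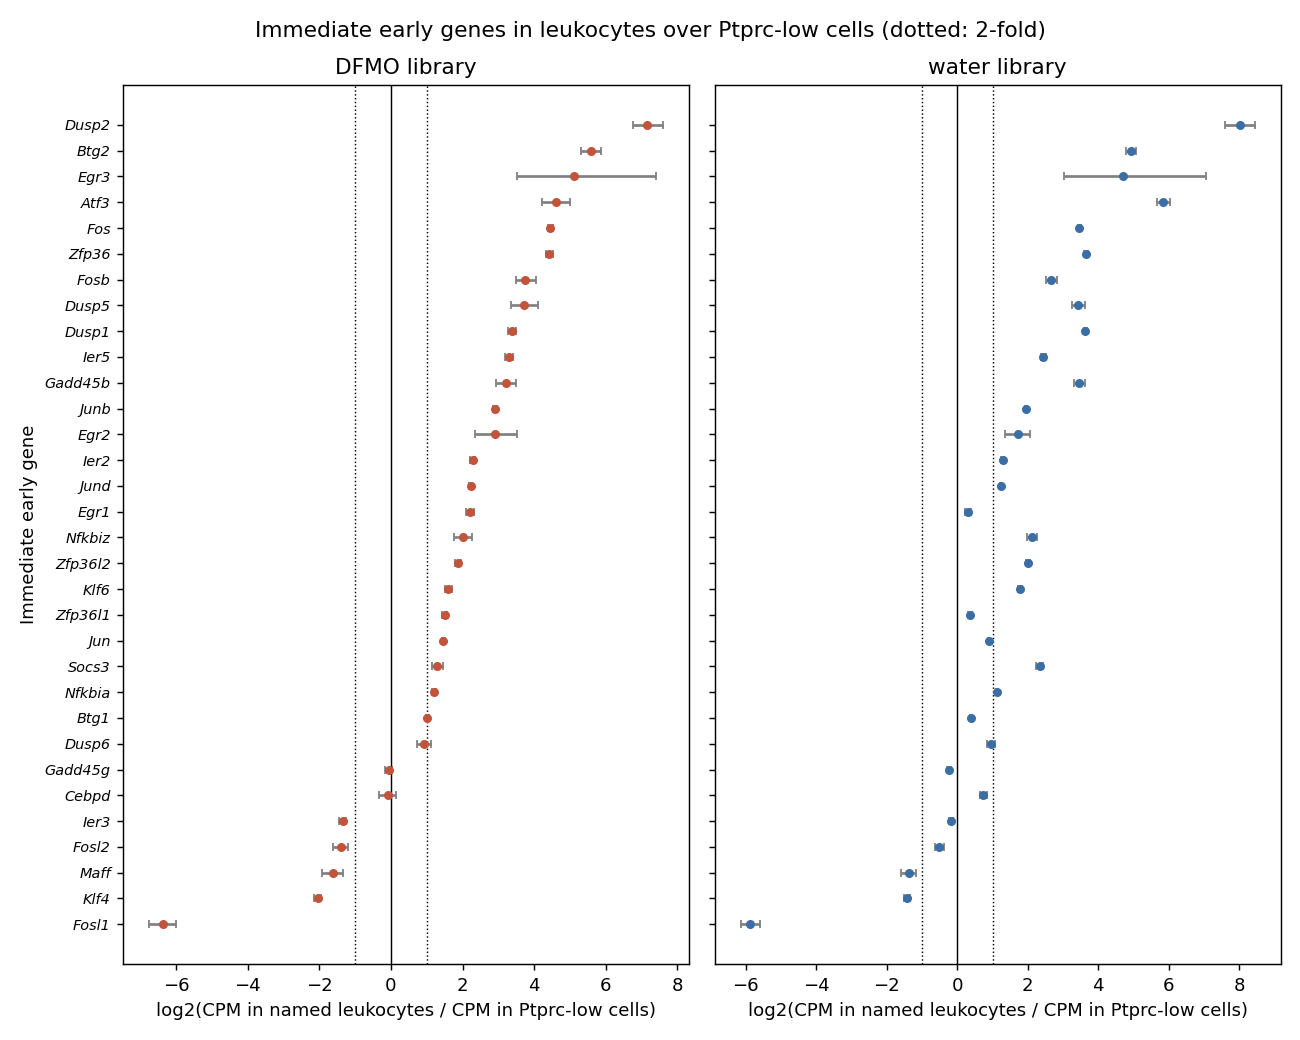
log2 ratio of CPM in named leukocytes over Ptprc-low cells (horizontal axis) for each of the 32 genes, in the DFMO library (left) and the water library (right). Points are ratios, bars 95% intervals of counting error, and dotted lines mark 2-fold. Dusp2 stands at the top with 7.16 in DFMO and 8.01 in water, and Fosl1 at the bottom with -6.37 and -5.87.

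Class by class, the summed ratio over Ptprc-low cells was 6.90-fold in DFMO and 4.87-fold in water for B cell-like cells. It was 4.81-fold and 4.02-fold for monocyte and macrophage-like cells, and 2.10-fold and 1.71-fold for NK cell-like cells, the lowest of the leukocytes. Fibroblast-like cells, which like the Ptprc-low cells are not leukocytes, stood at 1.46-fold and 1.64-fold. In the DFMO library 14 members were past 2-fold above Ptprc-low cells in every one of 7 leukocyte classes: Fos, Fosb, Junb, Jund, Egr2, Ier5, Dusp1, Dusp2, Zfp36, Zfp36l2, Btg2, Klf6, Nfkbiz and Gadd45b. Of all 10362 genes with enough UMIs in each of these comparisons, 4.37% were. In the water library, with 9 classes, 8 were: Junb, Ier5, Dusp1, Dusp2, Dusp5, Zfp36, Btg2 and Gadd45b, where 3.32% of all 11469 genes were. Fosl1 was the 1 member past 2-fold below Ptprc-low cells in every leukocyte class of both libraries, where 10.5% of all genes were in DFMO and 3.63% in water.

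Among the AP-1 subunits, which pair a FOS with a JUN protein on DNA, Fos, Fosb, Junb and Jund were higher in leukocytes in both libraries. Fos (chr12:85473890-85477273 on mm10), the gene of the c-FOS subunit, had 5307 CPM in DFMO and 3466 CPM in water B cell-like cells, and 4204 and 4149 CPM in monocyte and macrophage-like cells. CD4 T cell-like cells had 2901 and 2477 CPM of Fos, CD8 T cell-like cells 1460 and 896 CPM, NK cell-like cells 1231 and 995 CPM, and Ptprc-low cells 136 and 228 CPM. The leukocytes together had a log2 ratio of Fos over Ptprc-low cells of 4.45 (4.38 to 4.53) in DFMO and 3.46 (3.426 to 3.498) in water. Fos was thus high in B cells and monocytes, lower in T and NK cells and lowest in Ptprc-low cells of both libraries. A Fos UMI was seen in 81.7% of DFMO and 73.9% of water leukocytes, against 37.5% and 42.4% of the deeper Ptprc-low cells. With all cells thinned to 1000 UMIs these shares were 72.1% and 57.8% against 10.5% and 14.6%. Migratory dendritic cell-like cells of the water library were an exception among leukocytes, at 448 CPM, under the 879 CPM of the water fibroblast-like class. Fosb, a close relative of Fos, had 156 CPM in DFMO and 84.0 CPM in water leukocytes, against 11.5 and 13.2 CPM in Ptprc-low cells.

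Fosl1, which encodes the FOS relative FRA-1, ran the other way. It had 470 CPM in DFMO and 475 CPM in water Ptprc-low cells, 119 and 108 CPM in fibroblast-like cells, and 5.67 and 8.14 CPM in the named leukocytes. Its log2 ratio, leukocytes over Ptprc-low cells, was -6.37 (-6.76 to -6.01) in DFMO and -5.87 (-6.15 to -5.60) in water. At least 1 Fosl1 UMI was seen in 83.0% of DFMO and 81.6% of water Ptprc-low cells, against 1.5% and 2.8% of leukocytes. The Ptprc-low cells were deeper, with medians of 18559 and 16335 UMIs against 1989 and 3642 in leukocytes. After thinning to 1000 UMIs the shares were 31.1% and 31.6% in Ptprc-low cells against 0.7% and 0.8% in leukocytes. Fosl1 was therefore seen mainly outside the leukocytes at equal depth too. Within the FOS family, Fosl1 gave 68.7% (67.6 to 69.8) of the UMIs in DFMO and 61.0% (60.4 to 61.6) in water Ptprc-low cells. Its share was 14.3% and 9.84% in fibroblast-like cells and under 1% in each leukocyte class of either library.

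**Figure D3:**
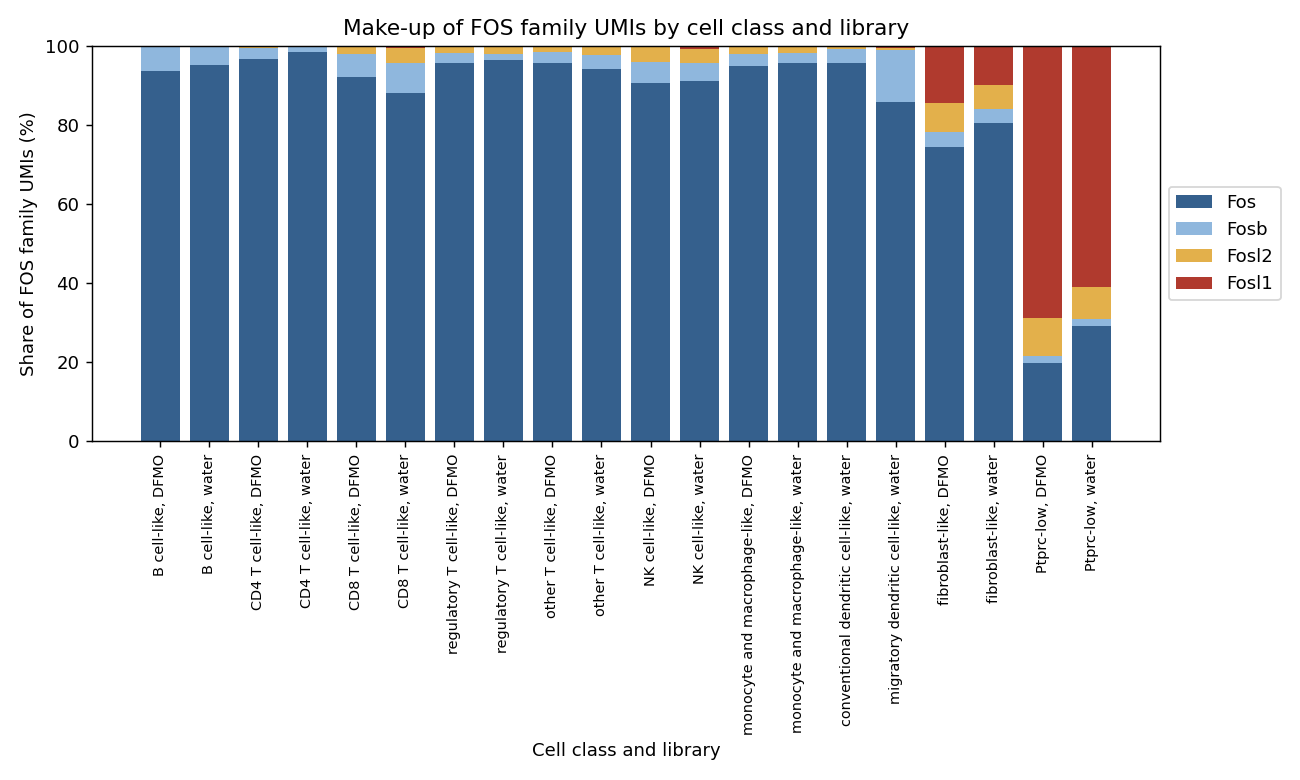
Make-up of the UMIs of Fos, Fosb, Fosl2 and Fosl1 (vertical axis, percent of the family's UMIs) by cell class and library, DFMO left of water in each class. Fosl1 holds 68.7% (DFMO) and 61.0% (water) in Ptprc-low cells, while Fos makes up most of every leukocyte bar.

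The JUN genes differed less. Jun had 1636 CPM in DFMO and 1184 CPM in water leukocytes, against 592 and 633 CPM in Ptprc-low cells, with log2 ratios of 1.47 and 0.90. Junb had 2752 and 1528 CPM against 367 and 395 CPM, with log2 ratios of 2.91 and 1.95, and Jund had 2596 and 1422 CPM against 556 and 604 CPM, with 2.22 and 1.24. All 3 were thus above Ptprc-low cells in the summed leukocytes, Jun past 2-fold only in DFMO. Class by class, Jun was past 2-fold in 3 of 7 leukocyte classes in DFMO and 2 of 9 in water. Its lowest class had a log2 ratio of 0.13 in DFMO and 0.16 in water. B cell-like cells had the highest Junb, 5392 CPM in DFMO and 3800 CPM in water, and the highest Jund, 4739 and 3535 CPM. Atf3, a stress-induced partner of JUN, was highest in monocytes: 1054 CPM in DFMO and 986 CPM in water monocyte and macrophage-like cells. It had 359 CPM in water conventional dendritic cell-like cells and at most 75.7 CPM in any other class. Fosl2 had 25.2 CPM in DFMO leukocytes against 66.5 CPM in Ptprc-low cells and was lower past 2-fold there only, since water leukocytes had 44.3 against 63.1 CPM. Maff, a small MAF protein that can pair with AP-1 factors, was lower in the summed leukocytes of both libraries, with 12.4 and 15.8 CPM against 38.5 and 40.8 CPM. NK cell-like cells were not past 2-fold lower, with 48.4 CPM of Maff in DFMO and 36.6 CPM in water.

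**Figure D4:**
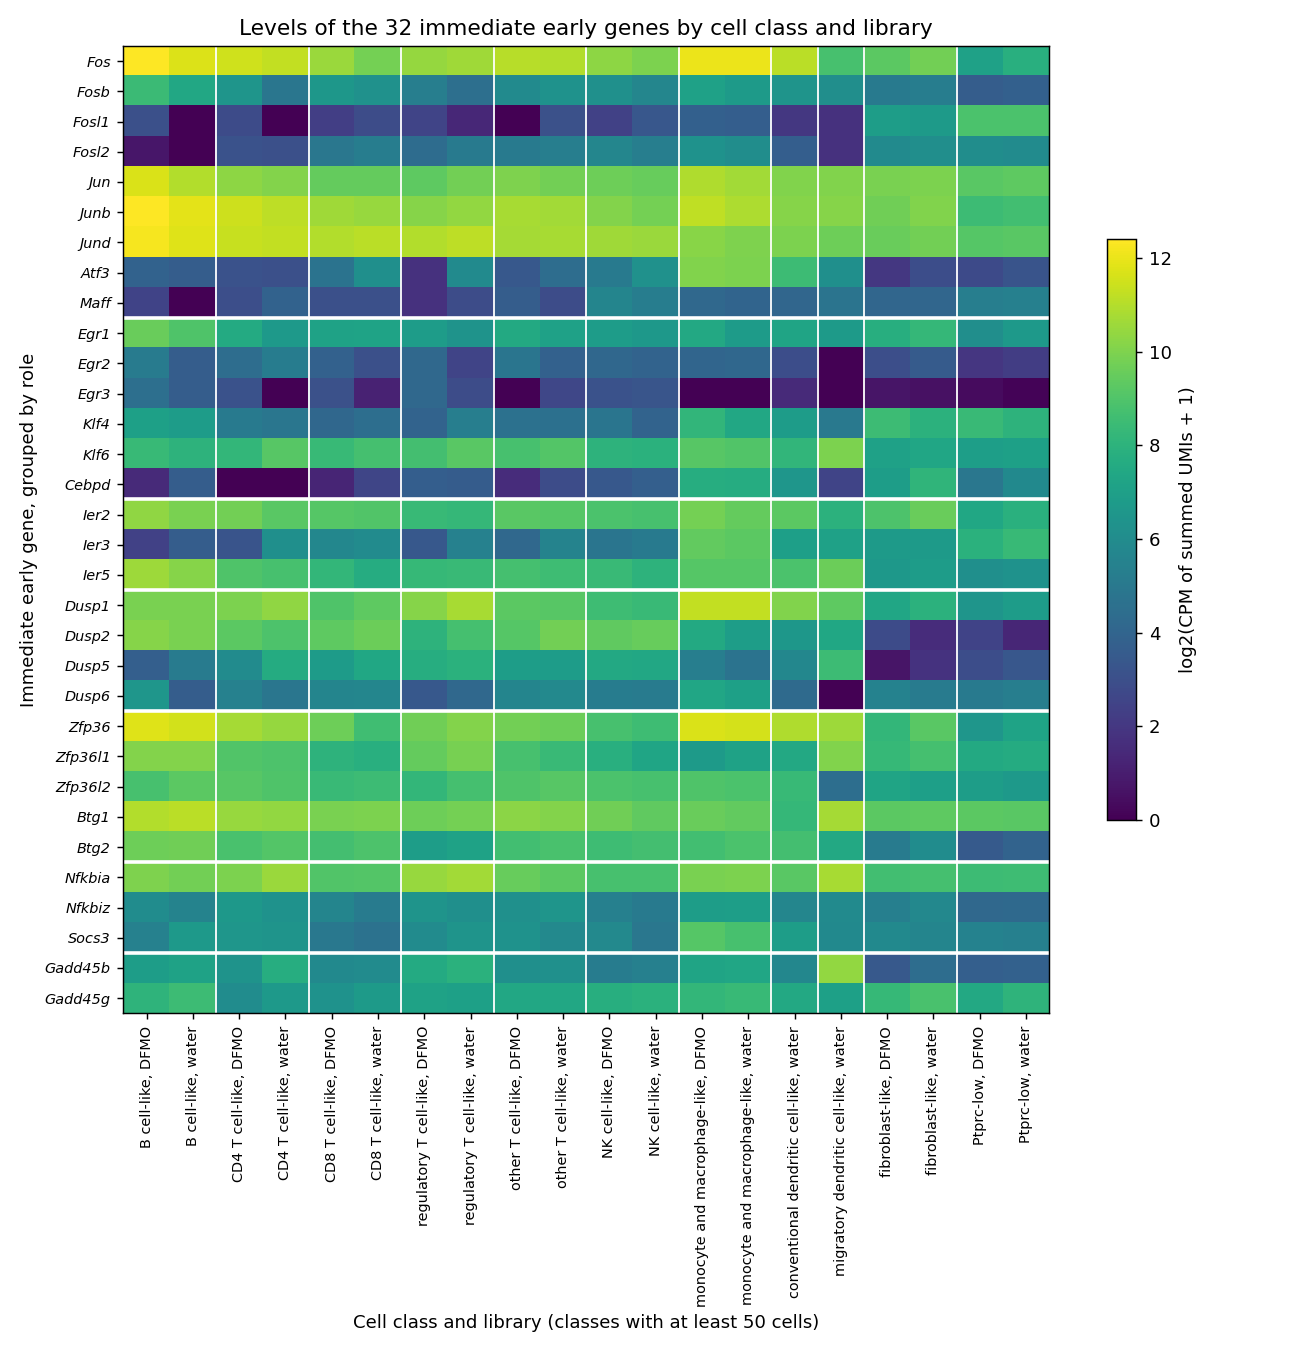
Levels of the 32 genes, as log2(CPM + 1) in colour, by cell class and library (columns, DFMO left of water, classes with at least 50 cells) with genes in rows grouped by role and white lines between roles. Fos, Junb, Jund and Zfp36 are bright in B cell-like columns, and Fosl1 is bright only in the Ptprc-low and fibroblast-like columns, at 470 and 475 CPM and at 119 and 108 CPM.

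Of the EGR zinc finger factors, Egr1 was highest in B cell-like cells, which had 754 CPM (DFMO) and 507 CPM (water). Over all leukocytes it had 312 CPM in DFMO against 67.7 CPM in Ptprc-low cells, and 122 CPM in water against 98.6 CPM, so it passed 2-fold in DFMO and not in water. Egr2 was low everywhere but past 2-fold in both, with 21.5 and 12.4 CPM against 2.88 and 3.79 CPM. Egr3 had 10.2 and 2.38 CPM in leukocytes against 0.298 and 0.0917 CPM in Ptprc-low cells, which rest on 3 UMIs in each library. Klf4, a Krüppel-like factor of monocytes, fibroblasts and epithelia, had 82.3 CPM in DFMO leukocytes against 340 CPM in Ptprc-low cells, and 95.7 CPM in water leukocytes against 259 CPM. That average hid a split among leukocytes, since monocyte and macrophage-like cells had 285 and 174 CPM of Klf4 and the T cell-like classes 14.7 to 38.1 CPM. Klf6, of the same family, had 367 and 451 CPM in leukocytes against 121 and 130 CPM, and was highest in migratory dendritic cell-like cells of the water library, at 1000 CPM. Cebpd, a C/EBP factor of the acute phase response, had 208 and 206 CPM in the monocyte and macrophage-like class, 117 and 278 CPM in fibroblast-like cells and at most 12.4 CPM in B, T and NK cell-like classes. It did not pass 2-fold, with 27.7 and 98.1 CPM in leukocytes against 29.5 and 58.6 CPM in Ptprc-low cells.

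The MAP kinase phosphatases, which switch off ERK, JNK and p38, had the highest median log2 ratio of any role, 3.55 in DFMO and 3.53 in water. Dusp2 (chr2:127336159-127338376), known as a phosphatase of activated lymphocytes, had 670 CPM in DFMO and 393 CPM in water leukocytes, against 4.67 and 1.53 CPM in Ptprc-low cells. Its log2 ratios were 7.16 (6.75 to 7.61) and 8.01 (7.61 to 8.44). Dusp2 was highest in B cell-like cells, with 1129 and 944 CPM. It had 632 and 792 CPM in CD8 T cell-like and 185 and 120 CPM in monocyte and macrophage-like cells. B and CD8 T cell-like cells were thus well above monocyte and macrophage-like cells in both libraries. Not all lymphocytes stood so far apart, since DFMO regulatory T cell-like cells had 259 CPM. Dusp1, a brake on p38 and JNK, was instead highest in monocyte and macrophage-like cells, with 2438 and 2429 CPM. Regulatory T cell-like cells were second, with 1115 and 1730 CPM, and B cell-like cells had 966 and 967 CPM. Against Ptprc-low cells, at 88.0 and 114 CPM, the leukocytes' Dusp1 gave log2 ratios of 3.38 and 3.64. Dusp5, a nuclear ERK phosphatase, had 87.5 and 101 CPM in leukocytes against 6.66 and 9.38 CPM, with the highest level in water migratory dendritic cell-like cells (362 CPM) and the next in regulatory T cell-like cells (210 and 245 CPM). Dusp6, an ERK phosphatase of the cytoplasm, did not pass 2-fold, with 64.9 and 73.7 CPM in leukocytes against 34.1 and 38.0 CPM.

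All 5 genes of mRNA decay and restraint of division were above Ptprc-low cells in the summed leukocytes, but only Zfp36 and Btg2 in every class. The lowest class had a log2 ratio of -0.78 in DFMO and -0.46 in water for Zfp36l1. In water it was -2.28 for Zfp36l2 and -0.97 for Btg1. Zfp36 encodes tristetraprolin, which binds AU-rich elements and speeds the decay of cytokine mRNAs. It had 1938 CPM in DFMO and 1812 CPM in water leukocytes, against 90.1 and 144 CPM in Ptprc-low cells, log2 ratios of 4.43 and 3.65. Like Fos, it was highest in B cell-like cells (3563 and 2982 CPM) and in the monocyte and macrophage-like class (3270 and 3149 CPM). Its relative Zfp36l1 was instead low in monocyte and macrophage-like cells, at 108 and 142 CPM, and high in B cell-like cells, at 1084 and 1082 CPM. Its log2 ratio, leukocytes over Ptprc-low cells, was 1.497 in DFMO and 0.36 in water. Of its 31-mers, 6.79% also occur in transcripts of other genes, the highest share among the members. Zfp36l2 had 430 and 423 CPM in leukocytes against 117 and 105 CPM. Btg2, an antiproliferative gene also induced by p53, had 496 and 435 CPM against 10.3 and 14.2 CPM, with log2 ratios of 5.58 and 4.94. Btg1, of the same family, was the most abundant member in DFMO Ptprc-low cells, at 625 CPM, and had 595 CPM in water Ptprc-low cells, against 1261 and 781 CPM in leukocytes.

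The 3 inhibitors of NF-kB and cytokine signalling were past 2-fold in both libraries. Nfkbia, which encodes IkB-alpha, had 821 CPM in DFMO and 813 CPM in water leukocytes, against 358 and 372 CPM. It was highest in water migratory dendritic cell-like cells, at 1777 CPM, and in regulatory T cell-like cells, at 1414 and 1624 CPM. Nfkbiz, an atypical nuclear IkB, had 68.8 and 78.9 CPM in leukocytes against 17.1 and 18.2 CPM. Socs3, an inhibitor of JAK kinases, had 110 and 211 CPM against 44.8 and 41.9 CPM, and was mostly a myeloid signal, with 558 and 439 CPM in monocyte and macrophage-like cells. The IER genes split. Ier2 had 812 and 576 CPM in leukocytes against 167 and 235 CPM, and Ier5 had 701 and 431 CPM against 71.0 and 79.3 CPM. Ier3 had 94.0 CPM in DFMO leukocytes against 240 CPM in Ptprc-low cells, and 289 CPM in water leukocytes against 325 CPM, while its level in monocyte and macrophage-like cells was 675 and 618 CPM. Gadd45b, a stress protein that acts on MAP kinase signalling, had 116 and 147 CPM in leukocytes against 12.5 and 13.4 CPM, and 1326 CPM in water migratory dendritic cell-like cells. Gadd45g, of the same family, lay near equality, with 171 and 230 CPM in leukocytes against 179 and 270 CPM.

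Other early genes outside the 32 were found on both sides of the same comparison. Of 39 such genes, 18 were higher and 10 lower in DFMO leukocytes, where 27.1% and 22.9% of all genes were. In water leukocytes 20 were higher and 10 lower, where 22.4% and 26.9% of all genes were, so the lower count was near the share of all genes in both. Cd69 and Rgs1, genes of activated lymphocytes, were among the 3 highest in both libraries: Cd69 had 531 and 292 CPM in leukocytes against 3.28 and 1.10 CPM in Ptprc-low cells, and Rgs1 had 519 and 867 CPM against 4.17 and 3.52 CPM. Gem in DFMO, with 142 against 0.795 CPM, and Cish in water, with 117 against 0.581 CPM, completed the highest 3. Cyr61, a matrix-associated early gene of mesenchymal cells, was the lowest in both, with 0.549 and 3.75 CPM in leukocytes against 221 and 292 CPM. Among 17 kinases and factors upstream of these genes, 7 in DFMO and 5 in water were higher in leukocytes and 0 were lower, and their median log2 ratios were 0.25 and 0.11. The 5 of 17 in water is near the 22.4% of all genes. Mkl1, a coactivator of serum response factor, was among the 3 highest of them in both, with 53.5 and 35.2 CPM against 15.6 and 13.7 CPM, and so was Nfkb1, with 69.9 and 66.4 CPM against 27.7 and 25.9 CPM. Heat shock genes often raised by dissociation had median log2 ratios below 0, unlike the members. Of 12, 2 were higher and 5 lower in DFMO leukocytes, and 3 were higher and 6 lower in water leukocytes, with medians of -0.89 and -1.005. Higher were 27.1% and 22.4% of all genes and lower 22.9% and 26.9%, so the 3 of 12 higher in water is near the share of all genes. The 12 genes summed to 6444 CPM in DFMO and 6737 CPM in water leukocytes, against 10111 and 11372 CPM in Ptprc-low cells. Hspa1a, an inducible HSP70 gene, went with the members instead, with 75.7 and 191 CPM in leukocytes against 0.298 and 2.17 CPM, while Hspd1, a mitochondrial chaperonin, had 170 and 159 CPM against 570 and 588 CPM.

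Within the classes, the levels of the members differed as much between clusters as between some classes. The monocyte cluster led by Hp and Chil3 had 34364 CPM in DFMO and 29622 CPM in water, a second monocyte cluster, led by Ly6i and Il1b, had 26713 and 28449 CPM, and the macrophage cluster led by C1qa and Pf4 had 11550 and 12218 CPM. Fos in these clusters was 6993 and 6307 CPM, 4396 and 5378 CPM, and 1148 and 1547 CPM. The macrophages nevertheless kept high Ier3, at 763 and 736 CPM. Among Ptprc-low cells, the cluster led by the hypoxia gene Car9 had the highest sum, 6069 CPM in DFMO and 7332 CPM in water, against 4642 and 5073 CPM in the dividing cluster and 4005 and 3977 CPM in the cluster led by Ccnd1. Ier3 followed that order, with 444 and 622 CPM in the Car9-led cluster, 124 and 206 CPM in the dividing cluster and 67.6 and 96.8 CPM in the Ccnd1-led cluster. Klf4 was also highest in the Car9-led cluster, with 481 and 410 CPM. Fosl1 did not vary in this way and stayed between 453 and 495 CPM in all 3 clusters of both libraries.

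The DFMO and water libraries were compared within the 6 classes that held at least 100 cells in each, and a member is called higher or lower past 1.5-fold. The summed level moved little: the log2 ratio of DFMO over water was 0.15 in NK cell-like, 0.11 in monocyte and macrophage-like, 0.05 in CD8 T cell-like and 0.04 in other T cell-like cells, and -0.14 in Ptprc-low and -0.31 in fibroblast-like cells. The interval for other T cell-like cells, -0.0037 to 0.079, included 0, and that ratio was -0.074 with TMM library sizes. The ratio of the monocyte and macrophage-like class was 0.0099 with cells thinned. Both classes without Ptprc were below 0, and all the ratios were under 1.5-fold. The members share their 1 library per group, so these are not independent observations.

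**Figure D5:**
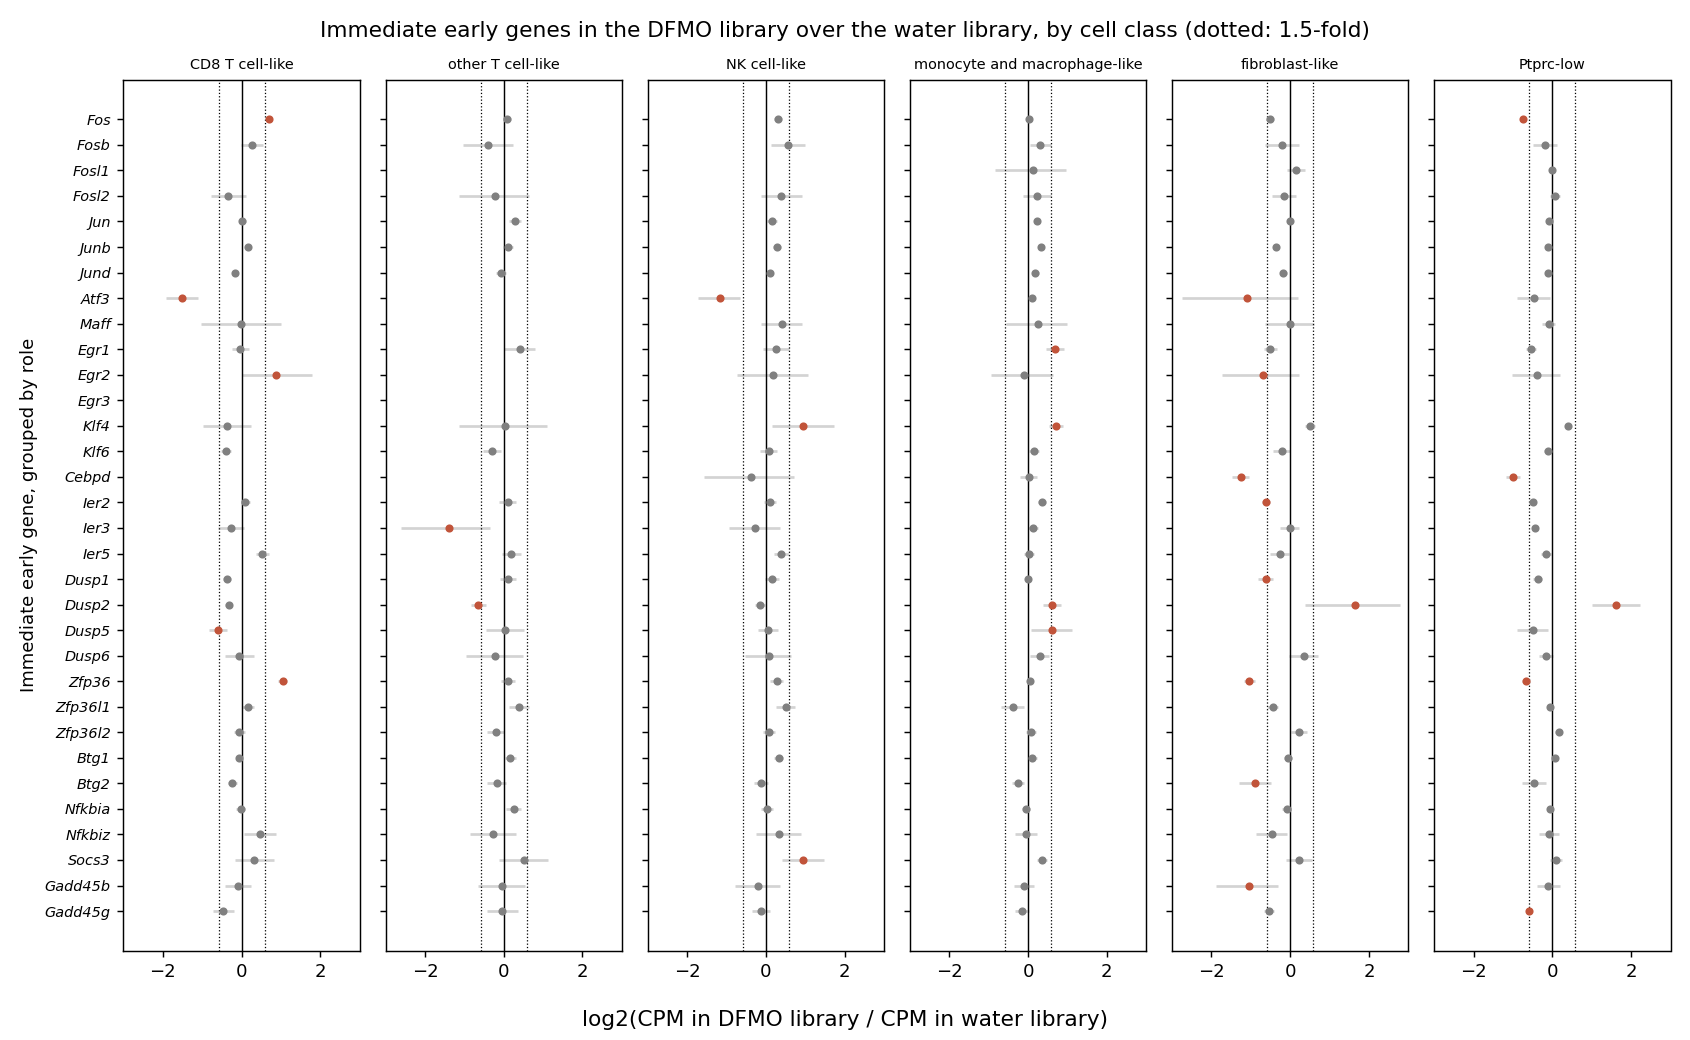
log2 ratio of CPM in the DFMO library over the water library (horizontal axis) for each member, in 6 cell classes. Points are ratios and bars 95% intervals of counting error, red points lie past 1.5-fold (dotted lines), and members with under 30 UMIs are left out. Most points lie inside the dotted lines, and the fibroblast-like panel has the most outside, 8 lower and 1 higher.

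In CD8 T cell-like cells, 3 of 29 members compared were higher (14.2% of all genes were) and 2 were lower (7.54% of all genes). Zfp36 had 797 CPM in DFMO against 386 CPM in water, a log2 ratio of 1.04 (0.93 to 1.16), and Fos had 1460 against 896 CPM, 0.70 (0.63 to 0.78). Egr2 was the third higher member, with 13.2 against 7.20 CPM. Atf3 was lower, with 25.3 against 72.0 CPM, and so was Dusp5, with 110 against 167 CPM. The class held different clusters in the 2 libraries: a cluster led by Dapl1 had 447 of its 728 DFMO cells and 45 of its 529 water cells. Without that cluster the summed log2 ratio was -0.15 and 1 member was higher. The share of all genes is not given for that setting, so the count is a description. In the largest remaining CD8 cluster, led by Gzmf, Fos had 981 CPM in DFMO and 1029 CPM in water, and Zfp36 had 398 and 416 CPM.

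Other lymphocytes showed few members past 1.5-fold. In NK cell-like cells, 2 of 30 were higher (7.35% of all genes) and 1 was lower (5.57%): Klf4 had 27.6 against 14.4 CPM, Socs3 56.1 against 29.4 CPM, and Atf3 33.7 against 75.7 CPM. In other T cell-like cells 0 of 26 were higher (9.85%) and 2 were lower (5.75%), Dusp2 with 562 against 877 CPM and Ier3 with 17.5 against 45.9 CPM. These shares were near or below those of all genes. Monocyte and macrophage-like cells had 4 of 31 higher (7.59% of all genes) and 0 lower (8.25%). Klf4 had 285 CPM in DFMO against 174 CPM in water, Egr1 180 against 112 CPM, Dusp2 185 against 120 CPM and Dusp5 38.6 against 25.1 CPM. With cells thinned 3 of 28 members were higher in this class, near the 11.6% of all genes. The cluster mix of the class differed: the Hp and Chil3 cluster held 64 of 188 DFMO and 321 of 1222 water cells. By cluster, the summed log2 ratio was 0.21 in the Hp and Chil3 cluster, -0.09 in the Ly6i and Il1b cluster and -0.08 in the C1qa and Pf4 cluster.

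The fibroblast-like class had 1 of 30 members higher (6.76% of all genes) and 8 lower (7.8%) in DFMO. Zfp36 had 290 CPM in DFMO against 594 CPM in water, a log2 ratio of -1.03 (-1.17 to -0.90), Cebpd 117 against 278 CPM, -1.25 (-1.47 to -1.04), and Ier2 487 against 748 CPM, -0.62 (-0.72 to -0.51). Dusp1 had 162 against 248 CPM, Btg2 35.1 against 65.0 CPM (log2 -0.89, but 0.38 with cells thinned) and Gadd45b 9.86 against 20.5 CPM. Atf3 and Egr2, with 3.08 against 6.53 and 6.78 against 10.9 CPM, passed the fold with intervals that included 0. The members that were lower thus belong to several roles, and their share, 8 of 30, exceeds that of all genes. In Ptprc-low cells 1 of 31 was higher (4.52%) and 4 were lower (2.94%). With cells thinned 11 of 28 were lower, where 7.34% of all genes were. Past 2-fold 0 were lower, where 1.26% of all genes were. Fos had 136 CPM in DFMO against 228 CPM in water, a log2 ratio of -0.75 (-0.83 to -0.66), and Zfp36 90.1 against 144 CPM, -0.68 (-0.78 to -0.58). Cebpd had 29.5 against 58.6 CPM, -0.99, and Gadd45g 179 against 270 CPM, -0.59. By cluster, the summed log2 ratio was -0.27 in the Car9-led, -0.13 in the dividing and 0.01 in the Ccnd1-led cluster.

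Dusp2 was the 1 member higher in DFMO in both classes without Ptprc, at very low levels: 4.67 against 1.53 CPM in Ptprc-low and 6.16 against 1.98 CPM in fibroblast-like cells. The 6 B cell markers, none of them at 0, moved the same way there, with 24.4 CPM in DFMO against 7.52 CPM in water Ptprc-low cells and 33.9 against 13.1 CPM in fibroblast-like cells. The 5 T cell markers had 31.5 against 13.3 CPM in Ptprc-low cells and 6.78 against 13.4 CPM in fibroblast-like cells, where 1 of them was at 0 in DFMO. The 10 monocyte and macrophage markers had 32.7 against 26.3 CPM in Ptprc-low cells, with 1 at 0 in DFMO, and 13.6 against 48.6 CPM in fibroblast-like cells, with 3 at 0 in DFMO. Their part in the Dusp2 values was not tested.

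Across the 20 sets of a class and a library, the members whose log2(CPM + 1) was most like that of Fos were Junb (Pearson r = 0.907), Zfp36 (0.885), Ier2 (0.858) and Btg2 (0.854), and those least like it were Fosl1 (-0.679) and Maff (-0.554). The sets share libraries and depth, so r is a description. Outside the lists, among genes with at least 100 CPM in 1 set, those most like Fos included Pou2f2 (0.892), Cxcr4 (0.889), Treml2 (0.872) and Gm26740 (0.867).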

How the data were processed

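MC38 tumours of 4 mice were pooled into each of the single-cell 5' libraries (10x Chromium, per the labels' protocols), 1 per group. Cell Ranger 3.02, Scanpy 1.4.4 and mm10 are named, per the submitters' processing notes. The authors deposited raw UMI counts of 10720 cells and 17775 genes, with a cell table whose group Control was taken as water. The matrix holds 0 mitochondrial and 0 ribosomal protein genes. A minimum of 200 genes per cell was set, and Scrublet (rate 0.05, scanpy 1.11.5) removed 51 DFMO (1.14%) and 97 water cells (1.55%); 26.7% and 35% of simulated doublets passed the thresholds, so doublets may remain. Leiden clustering (2000 variable genes, 30 components, 15 neighbours, resolution 1, seed 0) without 100 listed genes gave 22 clusters. A class needed 3 markers at least 2 times as high as elsewhere and seen in 0.1 of cells, with leading genes not against the name. Ptprc-low clusters fit no class and held less than 20 CPM of Ptprc. UMIs were summed per class and library, as CPM, with exact Poisson intervals. Ratios had exact conditional binomial intervals and shares Clopper-Pearson intervals. These cover counting error only. A side at 0 was set to 3 counts. The ratio intervals were tried on simulated Poisson counts only. Such counts hold no spread between cells or animals, so the trial does not show how the intervals behave on these data. With 1 library per group no p-value was made.

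The members, lists and comparisons were chosen with earlier results of these data known. The other lists were 39 further early genes, 17 upstream regulators and 12 heat shock genes, summed or counted as the members were. All 32 members have levels in both libraries; those among the 3 highest of a class, or past a fold with an interval that excluded 0, were to be named, with the 3 highest and lowest of the other lists where described. Of the genes most like Fos, 1 is not reported here. Positions are from GENCODE M21 and promoters from RefSeq (GRCm38.p6). The alternatives were doublets kept, 500 genes per cell, resolutions 0.5 and 2, clustering with the listed genes, cells weighted alike, thinning, leukocyte classes weighted alike, fibroblast-like cells added to Ptprc-low, other folds and UMI minimums, and TMM sizes (edgeR 4.0.16). The CD8 class without the Dapl1-led cluster was added after seeing the data. Leidenalg 0.10.2, pandas 2.3.3, scipy 1.17.1, numpy 2.4.6 and matplotlib 3.10.9 ran under Python 3.11.15.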

Additional observations from a re-analysis of the deposited data

Results flagged for a closer look

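For 3 members the libraries differed past 1.5-fold in opposite directions in a lymphocyte class and in Ptprc-low cells. For Fos the log2 ratio of DFMO over water was 0.70 in CD8 T cell-like cells and -0.75 in Ptprc-low cells. For Zfp36 it was 1.04 and -0.68. The CD8 class differed in its mix: the Dapl1-led cluster held 447 of its 728 DFMO and 45 of its 529 water cells. Within that cluster Fos had 2485 CPM in DFMO and 2307 CPM in water. In the Gzmf-led cluster neither Fos nor Zfp36 was higher in DFMO. Without the Dapl1-led cluster 1 member was higher in CD8 T cell-like cells, a count given without the share of all genes. For Dusp2 the log2 ratio of DFMO over water was -0.64 in other T cell-like cells and 1.61 in Ptprc-low cells. Its levels in Ptprc-low cells were 4.67 CPM (DFMO) and 1.53 CPM (water). Each group was 1 library, and the difference between the classes was not tested.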

How the results depend on the processing

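No paired analysis was possible because neither group held more than 1 library. The summed ratio of leukocytes over Ptprc-low cells stayed above 0 under every alternative run. In DFMO the summed log2 ratio of 2.01 became 1.86 with leukocyte classes weighted alike and 2.29 with cells thinned. In water the 1.56 became 1.41 at resolution 0.5, 1.73 with cells weighted alike, 1.36 with fibroblast-like cells added and 1.72 thinned. Weighting classes alike made 5 members lower in water in place of 3. The share of all genes is not given for that setting, so the count is a description.

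DFMO over water depended more on the settings, and the cause was not tested. Past 2-fold instead of 1.5-fold, 0 members were lower in Ptprc-low cells (1.26% of all genes) and 4 in fibroblast-like cells (3.22%). In monocyte and macrophage-like and NK cell-like cells 0 were higher (1.27% and 1.14%). In CD8 T cell-like cells 1 was higher (5.38%) and 1 lower (2.19%), and in other T cell-like cells 1 was lower (1.31%). For settings other than 2-fold and thinning the share of all genes is not given, so those counts are descriptions. At resolution 0.5, 1 was lower in Ptprc-low and 1 higher in monocyte and macrophage-like cells. In monocyte and macrophage-like cells 2 were higher with TMM sizes, with doublets kept and with cells weighted alike. Lower in CD8 T cell-like cells were 1 at resolution 2 and with doublets kept, and 4 with at least 10 UMIs and with cells weighted alike. Lower in other T cell-like cells were 1 with at least 100 UMIs, with 500 genes per cell and thinned (9.43% of all genes thinned). Higher there were 2 with at least 10 UMIs and 1 with cells weighted alike or thinned (11.5% of all genes thinned). The summed ratio there was -0.074 with TMM sizes, against 0.04. NK cell-like cells had 2 lower with at least 10 UMIs and 1 higher with at least 100 UMIs or thinned (9% of all genes thinned). With at least 100 UMIs, 0 were higher in Ptprc-low and fibroblast-like cells. Cells weighted alike gave 7 lower in Ptprc-low cells, in place of 4. Thinning gave 11 lower (7.34% of all genes) and 0 higher (7.53%) there. In monocyte and macrophage-like cells 3 were higher (11.6%) and 1 was lower (14.4%) thinned, with a summed ratio of 0.0099. In fibroblast-like cells 2 were higher thinned (12.7%), with a summed ratio of -0.43, and Btg2 turned to 0.38. Without the Dapl1-led cluster, CD8 T cell-like cells had a summed ratio of -0.15 and 1 higher member. Of the values of single members, 755 stayed, 318 moved and 1 reversed. Egr3, with few UMIs in both libraries, is limited by depth.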
